A study of Caenorhabditis elegans with 2 samples.

Results

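The homeobox transcription factor genes of Caenorhabditis elegans were examined for peaks of the eGFP-tagged product of C34F6.9, which RefSeq annotates as a USP domain-containing protein. The genes were chosen by name: all 63 protein-coding genes whose symbol starts with ceh-, together with 25 further genes listed by symbol, such as lin-39, unc-62 and vab-3. That gave 88 of 19973 protein-coding genes in the Ensembl annotation of WBcel235. The rule uses no measured value, but the genes were chosen with earlier results of these data known. RefSeq names a homeobox or homeodomain in the product of 82 of the 88. The other 6 are ceh-48, ceh-49, lin-11, mec-3, unc-86 and vab-3, which are known homeodomain genes whose product is named otherwise.

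The assay was chromatin immunoprecipitation followed by sequencing (ChIP-seq) on whole L2 larvae, pooled male and female, of the strain OP324 (genotype unc-119(ed3) III; wgIs324). All animals carried the eGFP-C34F6.9 insertion wgIs324 in the unc-119(ed3) background. There was 1 group of 2 biological replicates and no second condition, so the results describe where peaks lay. Which regulatory sequences drive the transgene is not stated in the labels. Because whole animals were used, strong occupancy in few cells and weak occupancy in many cannot be told apart. The optimal list held 5692 peaks selected by the irreproducible discovery rate (IDR), and the list of each replicate and of the pool held 30000 regions, background included. No read counts are in the lists, so depth is unknown. All positions are in ce11.

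Homeobox genes encode transcription factors that bind DNA through the homeodomain. In worms they set position along the body axis, as the Hox genes do, and many of them fix and maintain the identity of single neuron classes. Most are expressed in restricted sets of cells, and the LIM, POU, CUT, TALE and PRD classes carry further domains or changes beside the homeodomain.

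Peaks of the optimal list were present at a smaller share of the homeobox genes than of coding genes in general. Each gene was scored by the peak summits that lay from 5000 bp upstream of its annotated start to its end. By this rule 23 of the 88 homeobox genes held at least 1 summit of the optimal list (26.1%, 95% Wilson interval 18.1% to 36.2%), against 36.7% of all coding genes. The share of all coding genes was thus just above the interval. Taking the same number of highest-signal peaks from each replicate, 24 genes (27.3%) were reached in replicate 1 and 20 genes (22.7%) in replicate 2, where the shares of all coding genes were 36.6% and 36.2%. The coding share lay inside the homeobox interval in replicate 1 (19.1% to 37.4%) and above it in replicate 2 (15.2% to 32.5%). Within 500 bp of an annotated 5′ end, 10 homeobox genes had an optimal summit (11.4%, interval 6.29% to 19.7%), against 17.0% of all coding genes. In each replicate 9 homeobox genes (10.2%) had one, against 17.1% of coding genes in replicate 1 and 16.7% in replicate 2. At 250 bp the count was 9 (10.2%), against 11.7%, and at 1000 bp it was 13 (14.8%), against 21.6%. At each of these distances, and in each replicate at 500 bp, the share of coding genes lay inside the homeobox interval. Intervals cover counting error only, and neighbouring genes that share a summit are not independent. No test of the difference was made.

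**Figure D1:**
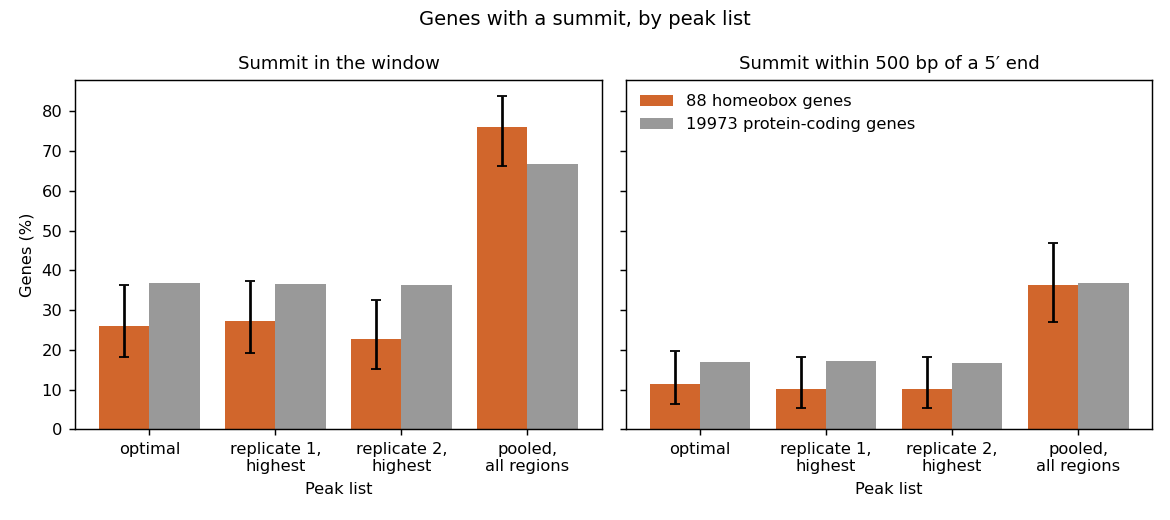
Share of genes with a summit in each peak list, for the 88 homeobox genes (left bar of each pair) and all 19973 protein-coding genes (right bar). The left panel counts summits from 5000 bp upstream to the gene end and the right panel summits within 500 bp of a 5′ end. Error bars are 95% Wilson intervals for the homeobox share. In the optimal list the homeobox share was 26.1% against 36.7%, while in the pooled list with all regions it was 76.1% against 66.9%.

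The windows of the homeobox genes were longer than average and held fewer summits per length. The genes had a median length of 3394 bp and a median window of 8394 bp, against 2027 bp and 7027 bp for all coding genes. Their windows together covered 818 kb and held 31 summits, or 3.79 per 100 kb, against 5.88 per 100 kb for the merged windows of all coding genes. In replicate 1 the densities were 3.67 and 5.87 per 100 kb, and in replicate 2 they were 3.3 and 5.86. With only 2000 bp upstream, 17 homeobox genes had a summit (19.3%), against 27.4% of coding genes. With the upstream part ended at the nearest coding gene, 16 homeobox genes had a summit (18.2%), against 25.4% of coding genes. On the X chromosome, where 24 of the homeobox genes lie, 5 had a summit (20.8%) against 32.8% of coding genes there. On the autosomes 18 of 64 did (28.1%), against 37.3%.

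When weaker regions were counted, the share of homeobox genes with a region in the window was not below that of coding genes. In the full pooled list 67 homeobox genes had a region in the window (76.1%, interval 66.3% to 83.8%), against 66.9% of coding genes, a value inside the interval, and the homeobox windows were longer. That left 44 homeobox genes with weaker regions only and 21 (23.9%) with none, where 33.1% of all coding genes had none. Within 500 bp of a 5′ end 32 homeobox genes had a region (36.4%), against 36.9% of coding genes. The median of the best pooled rank per gene, with genes without a region placed last, was 12380 for homeobox genes and 12366 for all coding genes. Among genes with an optimal summit, however, the median best rank was 3424 for the homeobox genes and 1922 for all coding genes. Rank 1 is the highest signal. In the 2846 peaks with the highest signal, 10 homeobox genes had a summit in the window (11.4%), against 24.6% of coding genes.

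The difference in share was largest in the first 1 kb upstream of the gene start. There 8 of 88 homeobox genes had a summit (9.09%), against 18.2% of coding genes. Between 2000 and 1000 bp upstream the shares were 3.41% and 7.05%. From 4000 to 5000 bp after the start, 6 homeobox genes had a summit (6.82%), against 4.73% of coding genes. This step can lie past the end of a gene, and only for ceh-14 was the summit there within the gene. For gene bodies alone, 7 homeobox genes had a summit (7.95%) against 6.21% of coding genes, and for the 5000 bp upstream alone 17 did (19.3%), against 33.7%.

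**Figure D2:**
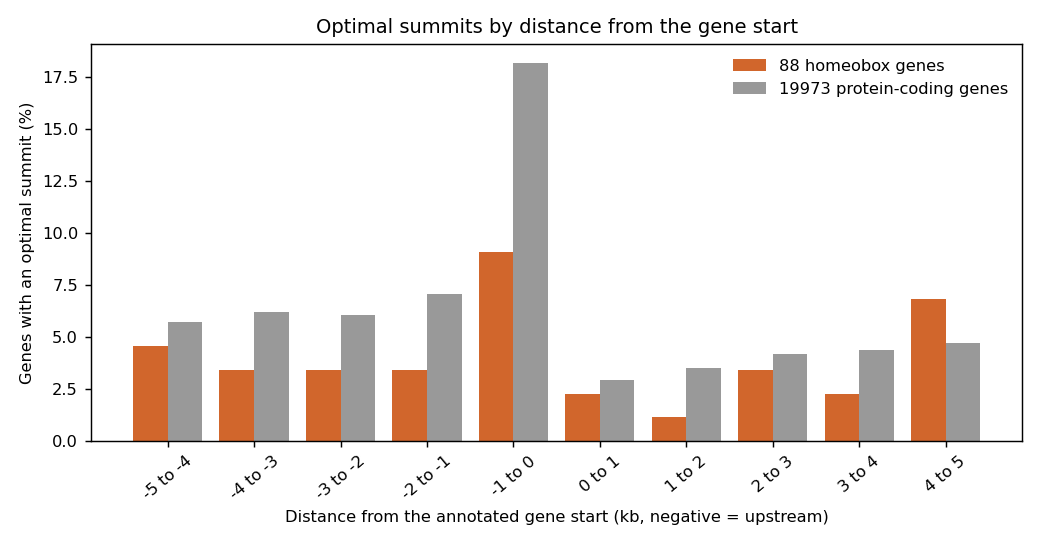
Share of genes with an optimal summit in each 1 kb step from the annotated gene start, for 88 homeobox genes (left bar) and 19973 protein-coding genes (right bar). The step just upstream of the start holds the highest share in both, 9.09% of homeobox genes and 18.2% of coding genes.

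The 31 summits fell into 28 separate regions and lay in different kinds of place. Of them, 11 were within 500 bp of a 5′ end of a homeobox gene. Another 7 were that close to a 5′ end of other coding genes only. Together these made up 58.1%, against 50.7% of all optimal summits, and 7 summits were intergenic (22.6%), against 32%. Exons outside these promoter windows held 4 (12.9%), against 1.42% of all optimal summits, and introns held 2 (6.45%), against 15.8%. The 4 exonic summits are 2 overlapping peaks in unc-62, 1 in ceh-14 and 1 in a gene next to ceh-5, so the exonic share rests on 3 places. For 20 of the 31 summits (64.5%) the nearest coding 5′ end belonged to a homeobox gene. When genes of any biotype were counted, this held for 15 (48.4%), and 7 summits were at most 500 bp from a non-coding gene's 5′ end.

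**Figure D3:**
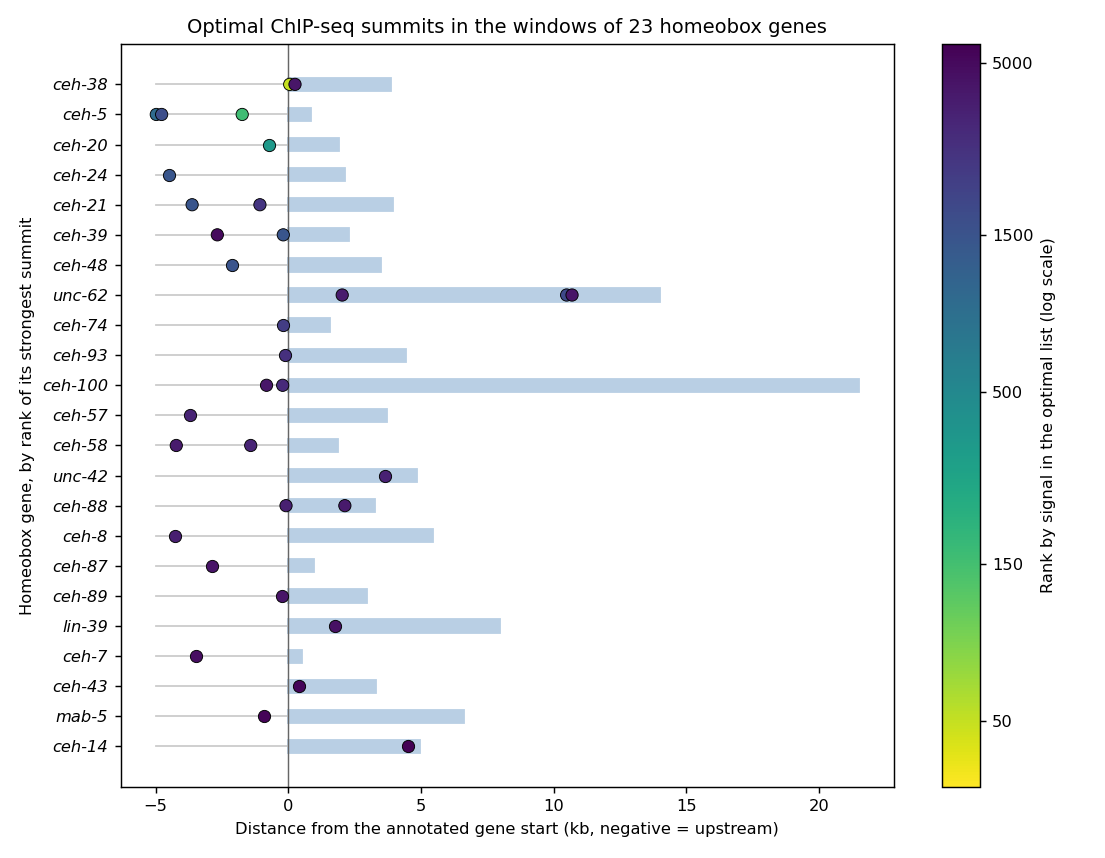
Optimal summits (points) of the 23 homeobox genes that have one, placed by distance from the annotated gene start in kb. Grey lines are the 5 kb upstream, blue bars the gene, and the colour gives the rank by signal on a log scale, with rank 1 the highest. The strongest summits are those of ceh-38, ceh-5 and ceh-20, at ranks 50, 159 and 352.

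Of the 6 CUT genes, 4 had a summit in the window, against 36.7% of all coding genes, and 2 had one within 500 bp of a 5′ end, against 17.0%. These counts are small, and ceh-39 and ceh-21 share a summit, so their calls are not independent. With the upstream part ended at the nearest coding gene ceh-21 had no summit, and with 2000 bp upstream ceh-48 had none. CUT factors carry a cut domain beside the homeodomain. The strongest summit of any homeobox gene was at ceh-38 (WBGene00000459, II:6951526-6955409, plus strand), a ONECUT gene. It lay at II:6951574, 45 bp upstream of an annotated 5′ end and 48 bp inside the annotated gene, which has 11 annotated 5′ ends. Its signal was 382 in replicate 1 (rank 42) and 244 in replicate 2 (rank 77). The signal of a peak is a value assigned by the authors without a common scale across lists, so ranks are used to set replicates side by side. A 5′ end of malt-1, the homologue of the paracaspase MALT1, was no more than 500 bp from it as well. A second summit in the same peak region, at II:6951774, ranked 2707 in replicate 1 but 14584 in replicate 2, so it stood among the 5692 highest in replicate 1 only.

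The neighbouring X-linked CUT genes ceh-39 and ceh-21 shared a summit. It lay at X:1856366, 194 bp upstream of ceh-39 (WBGene00000460), which acts as an X-signal element in sex determination, and 3630 bp upstream of ceh-21 (WBGene00000444). Its rank was 1364 in replicate 1 and 1742 in replicate 2, with signals of 115 and 67.9. A second summit in the window of ceh-21 was at the 5′ end of T26C11.9 (39 bp, ranks 2264 and 3406). A second one in the window of ceh-39, 2680 bp upstream, lay at a tRNA gene (ranks 4288 and 6491). The next gene of the row, ceh-41, had no optimal summit in its window and no pooled region at all, and its first optimal summit upstream was 5135 bp away. ceh-48 (WBGene00015934), a ONECUT gene expressed throughout the nervous system, had a summit 2123 bp upstream at IV:6809985, beside the non-coding gene C17H12.31. It ranked 1859 in replicate 1 and 1301 in replicate 2. The other CUT gene, ceh-49, had no pooled region.

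Both of the best-known Hox cofactors of the TALE class had summits. ceh-20 (WBGene00000443) encodes the Pbx and Extradenticle orthologue, and its summit at III:6979154 lay 730 bp upstream of the gene, with no other 5′ end within 500 bp. The signal was 181 in replicate 1 (rank 512) and 161 in replicate 2 (rank 281). unc-62 (WBGene00006796), the Meis and Homothorax orthologue, is a gene of 13989 bp with 15 annotated 5′ ends. Its strongest summit, at V:4507947, was in an exon, 743 bp past the nearest 5′ end of the gene and 10486 bp from the gene start. The ranks there were 1559 in replicate 1 and 2249 in replicate 2. An adjacent summit at V:4508151 ranked 3585 and 4357, and another, at V:4499488, coincided with an annotated internal 5′ end (ranks 3709 and 6070). The unc-62 window held 16 pooled regions, 17 in replicate 1 and 17 in replicate 2. The other TALE genes, ceh-60 and ceh-40, had no optimal summit, and ceh-40 had no pooled region either.

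Of the 6 Hox genes, 2 had an optimal summit in the window, against 36.7% of all coding genes, so the count was near the background. lin-39 (WBGene00003024), the midbody Hox gene needed for vulval precursor cells, had one at III:7534866, 61 bp upstream of an internal 5′ end and 1766 bp inside the gene. It ranked 4751 in replicate 1 and 4366 in replicate 2, with signals of 42.1 and 32.2. mab-5 (WBGene00003102), which patterns the posterior body and directs Q neuroblast migration, had one 908 bp upstream at III:7784362. Its rank was 4708 in replicate 1 and 8623 in replicate 2, so that it was among the 5692 highest in replicate 1 only. ceh-13, the labial orthologue, had a best pooled region of rank 6283, just outside the optimal list. The best region of its window was at III:7553086 in replicate 2 (rank 4119), but at another place, III:7556105, in replicate 1 (rank 12843). The posterior genes php-3 and nob-1 shared a best pooled region at III:12082172 of rank 7772 (ranks 8227 and 9429 in the replicates), and the best of egl-5, at III:7812644, ranked 17614. The best region in the egl-5 window was at III:7812638 in replicate 1 (rank 11248) and at another place, III:7811701, in replicate 2 (rank 18166). All 6 Hox genes had some region in the pooled list, where 66.9% of coding genes did.

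The ANTP class, with the NK-like, Distal-less and related genes, had summits in the windows of 4 of 23 members, against 36.7% of all coding genes. Of the 23, only ceh-43 had one within 500 bp of its 5′ end, against 17.0% of coding genes. The window of ceh-5 (WBGene00000430) held the second strongest summit of the whole set, at I:9725427, of rank 142 in replicate 1 and 189 in replicate 2. That summit lay 1742 bp upstream of ceh-5, in an exon at a place covered by both eat-16 and ocrl-1. eat-16 encodes a regulator of G protein signalling and ocrl-1 an inositol phosphatase. The other summits of that window were at its far end, 4980 and 4779 bp upstream, near the 5′ end of eat-16 and the non-coding genes C16C2.7 and C16C2.8. The first had rank 1440 in replicate 1 and no match in replicate 2, and the second had ranks 2795 and 379. When the upstream part was ended at the nearest coding gene, ceh-5 had no summit. ceh-24 (WBGene00000447), an NK-2 type gene of pharyngeal and other muscle cells, had an intergenic summit 4518 bp upstream at V:13808713 (ranks 1400 and 1761), nearer to swan-1 than to ceh-24. ceh-43 (WBGene00000463), the Distal-less orthologue, had a summit 386 bp inside the gene at III:4449557, where the tRNA gene WBGene00014268 and the non-coding gene C28A5.12 also lie (ranks 4940 and 7553). The summit in the window of ceh-7 was 140 bp past the 5′ end of cup-16 (ranks 3607 and 7066). No pooled region was found for ceh-9, ceh-19, ceh-28, ceh-30, ceh-31, pal-1 and vab-7.

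The PRD class, with the paired-type genes, had summits in the windows of 2 of 14 members, against 36.7% of all coding genes. None of the 14 had one within 500 bp of a 5′ end, against 17.0%. unc-42 (WBGene00006778), which sets the identity of command interneurons, had an intronic summit at V:9765769. That was 779 bp upstream of an internal 5′ end, and it ranked 3189 in replicate 1 and 6785 in replicate 2. The summit in the window of ceh-8 lay 4290 bp upstream between the divergent genes fitm-2 and nol-16 (ranks 5305 and 2761). vab-3, the Pax6 orthologue, had weaker regions only, while ceh-10, ceh-17, ceh-54 and unc-4 had no pooled region.

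Several LIM and POU genes are known for setting neuronal identity. Of the 7 LIM genes 1 had a summit in the window, against 36.7% of all coding genes, namely ceh-14, in an exon 4497 bp after the gene start at X:7528235. It ranked 6088 and 6165, outside the 5692 highest of either replicate, and the nearest coding 5′ end was that of F46C8.3. None of the 3 POU genes (unc-86, ceh-6 and ceh-18), of the 3 sine oculis-type genes (ceh-32, ceh-33 and ceh-34) or of the zinc finger homeobox genes zag-1 and zfh-2 had an optimal summit. All of these but ceh-32 had weaker pooled regions. These classes are small, and the highest peaks of a single replicate reached lim-7 and ceh-18 in replicate 1 and lin-11 in replicate 2.

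**Figure D4:**
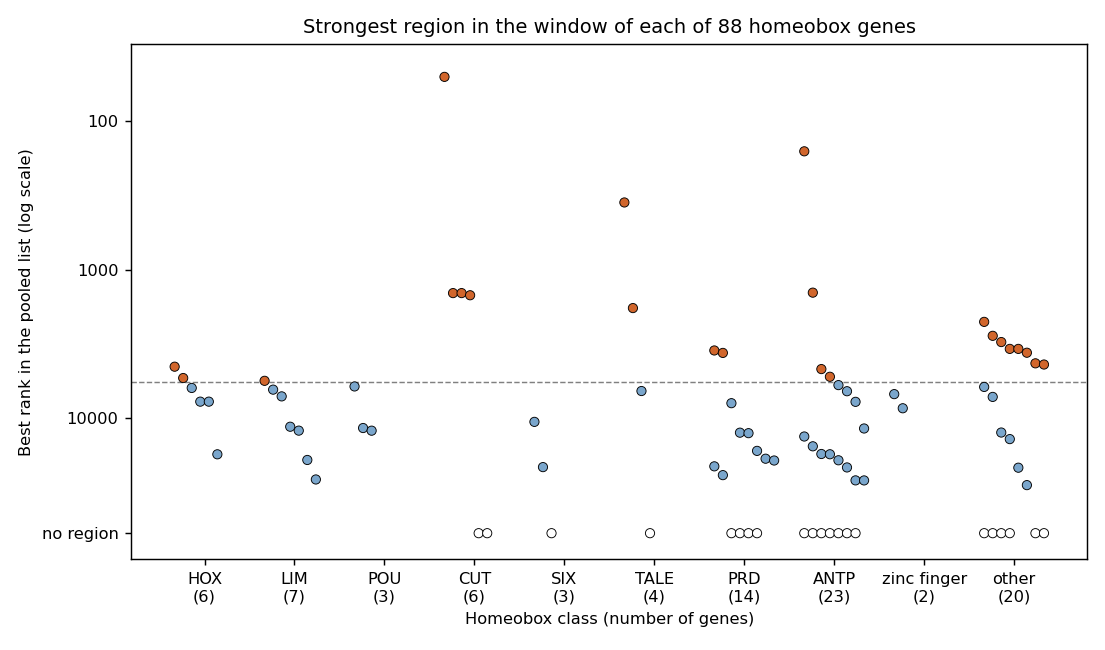
Best rank in the pooled list for the window of each of the 88 homeobox genes, by class, on a log axis with the strongest at the top. The dashed line is the last rank of the optimal list, 5692. Orange points have an optimal summit, blue points have weaker regions only and open points have no region. The CUT, TALE and ANTP genes hold the 3 strongest points, ceh-38, ceh-20 and ceh-5.

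Many of the remaining summits lay in the windows of divergent or little-studied ceh genes, for which no class was assigned. Of these 20 genes, 8 had a summit in the window, against 36.7% of all coding genes, so the count was near the background. Within 500 bp of a 5′ end 5 had one, against 17.0%, which is 5 of the 10 homeobox genes with a promoter summit. ceh-74 (WBGene00013876) had a summit 211 bp upstream at V:14177868, which also lies inside the gene cest-2.3 (ranks 3075 and 1408). ceh-93 (WBGene00019864) had one 138 bp upstream at X:388935 (ranks 2699 and 3363). ceh-100 (WBGene00012584), at 21503 bp the second longest homeobox gene after zfh-2, had one 216 bp upstream at II:12603896 (ranks 3443 and 2988), which is also the promoter of the divergent gene lips-15. ceh-88 had one 91 bp upstream (ranks 6320 and 2386) and ceh-89 one 242 bp upstream (ranks 4502 and 4425). ceh-57 and ceh-58, which lie one after the other, shared an intergenic summit 1421 bp upstream of ceh-58 (ranks 4336 and 2695). The 5′ end of the piRNA gene 21ur-14788 was within 500 bp of it. With 2000 bp upstream, or with the upstream part ended at the nearest coding gene, ceh-57 had no summit. A second ceh-58 summit lay 4227 bp upstream (ranks 4115 and 3935). The summit of ceh-87 was between the divergent genes nspf-1 and sup-9, a potassium channel gene (ranks 5817 and 2999).

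The sequence at these summits was compared with the 6-mers that mark optimal summits as a whole. Among 6-mers found at 5% or more of summits, the 3 with the highest ratio of summits to flanks over all 5692 peaks, within 50 bp of the summit and on either strand, were read. The first, ACGCAG, was found at 16.8% of all optimal summits and at 1.87% of equal windows shifted by 300 bp. It was at 7 of the 31 summits in homeobox windows (22.6%). The second, GACGCA, was found at 16.4% of all optimal summits and 1.97% of shifted windows, and at 9 of the 31 (29%). The last, AGACGC, was found at 15.7% and 2.26%, and at 8 of the 31 (25.8%). They overlap each other in a single longer string, so these counts are not independent. At least 1 of them was found at 12 of the 31 (38.7%), against 23.6% of all optimal summits. That difference was not tested. Not all of the 12 were closest to a homeobox gene. By nearest coding 5′ end, eat-16, swan-1, T26C11.9 and C49C3.6 each took 1 of them, and homeobox genes the others. The median GC content of the sequence windows was 45.5% for the 31 summits and 43.6% over all optimal summits. A match describes the letters of the window and is no evidence of a site.

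The following windows, from 50 bp before to 50 bp after the summit and read 5′ to 3′ on the strand of the gene, show where these letters occur. Capitals mark matches to the 3 6-mers on either strand. The sequences are from the RefSeq copy of WBcel235. The first 7 hold a match and the last 2, at the Hox gene lin-39 and the X-signal element gene ceh-39, do not. The windows shown are examples that favour matches, since only 12 of all 31 summits hold one (38.7%). On the plus strand are ceh-20 (chrIII:6979104-6979204), ceh-24 (chrV:13808663-13808763), ceh-48 (chrIV:6809935-6810035) and ceh-74 (chrV:14177818-14177918). On the minus strand are ceh-93 (chrX:388885-388985), ceh-100 (chrII:12603846-12603946), mab-5 (chrIII:7784312-7784412), lin-39 (chrIII:7534816-7534916) and ceh-39 (chrX:1856316-1856416).
ceh-20: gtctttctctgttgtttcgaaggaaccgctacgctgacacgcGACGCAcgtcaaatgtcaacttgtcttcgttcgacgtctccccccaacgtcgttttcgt
ceh-24: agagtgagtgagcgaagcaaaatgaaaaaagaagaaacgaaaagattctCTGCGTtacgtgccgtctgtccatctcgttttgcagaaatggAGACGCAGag
ceh-48: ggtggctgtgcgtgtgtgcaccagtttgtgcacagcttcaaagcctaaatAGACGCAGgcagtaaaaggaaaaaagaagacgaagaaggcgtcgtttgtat
ceh-74: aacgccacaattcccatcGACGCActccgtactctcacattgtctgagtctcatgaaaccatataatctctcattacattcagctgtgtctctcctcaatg
ceh-93: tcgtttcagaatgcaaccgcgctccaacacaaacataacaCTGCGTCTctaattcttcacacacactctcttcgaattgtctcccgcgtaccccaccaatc
ceh-100: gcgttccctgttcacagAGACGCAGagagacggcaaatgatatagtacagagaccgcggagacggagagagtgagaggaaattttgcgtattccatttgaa
mab-5: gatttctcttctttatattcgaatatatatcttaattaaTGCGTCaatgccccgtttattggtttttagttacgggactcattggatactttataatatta
lin-39: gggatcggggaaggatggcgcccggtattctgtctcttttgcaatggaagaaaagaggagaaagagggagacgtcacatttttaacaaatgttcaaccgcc
ceh-39: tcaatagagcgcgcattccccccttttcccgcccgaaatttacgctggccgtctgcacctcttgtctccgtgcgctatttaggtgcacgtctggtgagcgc

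In the windows of ceh-48, ceh-93, ceh-100 and ceh-24 all 3 are present in 1 run, and ceh-24 holds a further match to the first. In those of ceh-20, ceh-74 and mab-5 only the second is present, on either strand. None of the 3 6-mers is in the windows of either ceh-38 summit or of the 3 unc-62 summits, while the strongest ceh-5 summit holds all 3.

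Replicate signals were less closely correlated over the homeobox summits than over all optimal summits, a difference that was not tested. Of the 31 summits, 30 had a counterpart no more than 100 bp away in each complete replicate list, and 20 (64.5%) were among the 5692 highest of both, against 75.3% of all optimal summits. Across the 30 the Spearman rho of the signals was 0.547, against 0.797 across 5372 optimal summits. These are descriptions over peaks that share libraries. The homeobox summits spanned ranks 50 to 5623 of the optimal list, with a median rank of 3634 against 2846 over all optimal summits. Whether this bears on the rho was not tested. Replicates 1 and 2 reached 17 homeobox genes in common, which was 70.8% of the 24 of replicate 1 and 85% of the 20 of replicate 2. All 17 also had an optimal summit. The same overlap was not computed over all coding genes, so these shares have no background beside them. Genes reached in replicate 1 only were ceh-7, ceh-18, ceh-43, ceh-62, lim-7, mab-5 and unc-42, and those in replicate 2 only were ceh-13, ceh-87 and lin-11.

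**Figure D5:**
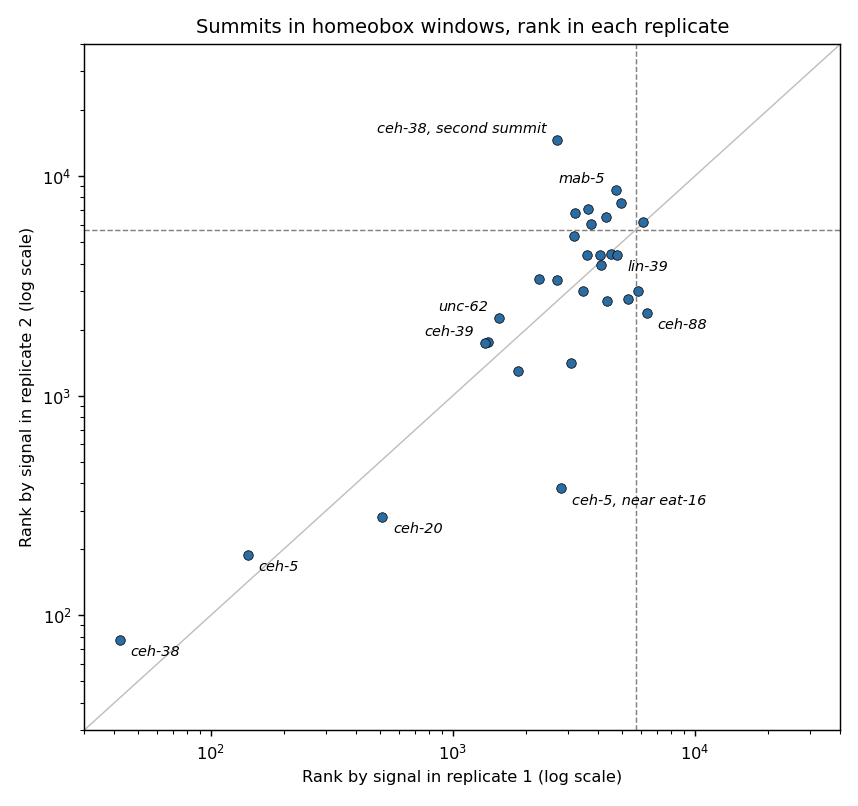
Rank by signal in replicate 1 (horizontal) and replicate 2 (vertical) of the 30 summits in homeobox windows with a counterpart in both replicates, on log axes. Dashed lines mark rank 5692 and the solid line equal ranks. ceh-38, ceh-5 and ceh-20 rank high in both, while the second ceh-38 summit ranks 2707 and 14584.

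The edges of the scoring were close for a few genes. Just inside the 5000 bp limit were summits of ceh-5 at 4980 bp and ceh-24 at 4518 bp. Just outside it, the first optimal summit upstream lay 5135 bp from ceh-41, 5194 bp from ceh-33 and 5388 bp from ceh-62. At the edge of the optimal list, mab-5 and ceh-14 were the last genes inside, at ranks 5385 and 5623. ceh-63, ceh-18 and ceh-92 were the first outside, at pooled ranks 6011, 6137 and 6184.

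A further 13 homeobox genes outside the name rule, such as pha-2, dve-1 and pros-1, were scored in the same way. Of them, 4 had a summit in the window, against 36.7% of coding genes, and 1 had one within 500 bp of a 5′ end, against 17.0%. In each replicate 3 of the 13 were reached. The promoter summit was at irx-1, an Iroquois gene, 353 bp upstream (ranks 5876 and 4327). The others were at tab-1 (2901 bp upstream, ranks 3073 and 2468), dsc-1 (4331 bp upstream, ranks 3599 and 5927) and unc-39 (4643 bp upstream, ranks 5521 and 3853).

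Another 13 genes act with homeobox factors or on Hox gene expression, as cofactors or as Polycomb or trithorax regulators. Of these, 12 had a summit in the window, against 36.7% of coding genes, and 9 had one within 500 bp of a 5′ end, against 17.0%. In each replicate 11 of the 13 were reached. The strongest was at ldb-1, the LIM domain-binding cofactor, 1761 bp past a 5′ end (ranks 404 and 349). The Hox regulator sor-1 had a summit 478 bp upstream (ranks 539 and 324), and the trithorax-group gene lin-49 had one 333 bp upstream (ranks 640 and 641). unc-37, the Groucho corepressor, had one 267 bp upstream (ranks 1125 and 494). mig-32 had no summit in its window but had one within 500 bp of a 5′ end. No test of either list was made. Both lists were chosen with earlier results of these data known, so these counts describe the listed genes only and do not show an excess.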

How the data were processed

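Peak lists from 2 biological replicates of 1 group were used, in narrowPeak format and ce11. In the deposited listing, each replicate list is derived from an alignment file and 1 further file, and the optimal list from the pooled and replicate lists. The labels name a possible control, which was not analysed here. No aligner or peak caller is named in the labels or the listing. The signal was deposited by the authors for each peak, and only its order within a list was used. The −log10 q-value column, also deposited by the authors, was not used. The 5692 optimal peaks proved to be the top of the pooled list by signal.

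A summit is the peak start plus the deposited offset plus 1. Genes are from Ensembl release 115, with 5′ ends of protein-coding transcripts, and sequences and product names from RefSeq, both WBcel235. Shares have 95% Wilson intervals, and no test was made, because there is 1 group. Homeobox classes were assigned from general knowledge. Values are given for homeobox genes with an optimal summit, for the 6 Hox genes, for genes at the edges of the scoring, and for up to 4 genes by signal of each further list. The members and lists were chosen with earlier results of these data known. Sequence on chromosome I or overlapping an annotated UTR is not printed. Window counts and distances were tested on simulated data. Software was Python 3.11.15 with pandas 2.3.3, numpy 2.4.6, scipy 1.17.1 and matplotlib 3.10.9.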

Additional observations from a re-analysis of the deposited data

How the results depend on the processing

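No paired analysis was possible because there is 1 group. The count of homeobox genes with a summit in the window (23) ranged from 20 to 24 in single replicates and from 16 to 18 under the other windows and lists, apart from the 2846 strongest peaks, where it was 10. The count within 500 bp (10) was 9 in each replicate, and 4 in the 2846 strongest peaks. It was 7 for peaks high in both replicates, 9 at 250 bp and 13 at 1000 bp. Under the 2846 strongest peaks the shares were 11.4% in the window and 4.55% within 500 bp, against 24.6% and 11.1% of all coding genes. For peaks high in both replicates they were 19.3% and 7.95%, against 31.4% and 14.4%. The density of 3.79 summits per 100 kb ranged from 3.3 to 3.67 in single replicates. With windows ended at the nearest coding gene it was 3.37, against 5.91 for all coding genes. In the 2846 strongest peaks it was 1.47, and for peaks high in both replicates 2.45. These lists hold fewer peaks, which lowers any density, and their densities over all coding genes were not computed. The share of summits nearest to a homeobox gene (64.5%) ranged from 73.3% to 74.1% in single replicates. It was 66.7% in the 2846 strongest peaks, 70% for peaks high in both replicates and 48.4% with genes of any biotype. The other homeobox genes with a summit (4 of 13) numbered 1 in the 2846 strongest peaks, 2 for peaks high in both replicates and 3 in each replicate. The cofactor and chromatin list had 9 to 11 under the same settings, against 12. Of 138 summit counts of single genes under alternatives, 82 were unchanged or within the replicate spread. Depth is unknown, so a gene without a region may hold occupancy below what these lists record.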
